A study of Mus musculus with 12 samples.

Results

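The genes examined were 7 genes of the poly(A)-binding protein system, Pabpc1, Pabpc1l, Pabpc4, Pabpn1, Pabpn1l, Paip1 and Paip2. They were chosen by name from a table of 23230 genes. All 7 were found in it, and all 7 reached 1 FPKM in at least 1 library, as did 11502 genes in all. FPKM counts sequenced fragments relative to the length of the gene's exons and to the size of the library, so that levels of different genes can be set side by side per length.

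Poly(A)-binding proteins coat the adenosine tail at the end of messenger RNAs. The cytoplasmic forms join the tail to the translation machinery at the cap and to the complexes that shorten the tail, while the nuclear forms act while the tail is being made. Oocytes are known for a pair of forms of their own, Pabpc1l and Pabpn1l. Pabpc1l, also called ePAB, is a cytoplasmic protein of oocytes and early embryos. Pabpn1l (ePABP2) is named after the nuclear form Pabpn1, and where its protein lies in the cell was not measured. Oocytes stop transcription when they are fully grown and then depend on stored mRNA, much of which is translated or destroyed during meiotic maturation.

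The study compared oocytes of wild-type (WT) females with those of Zar1/2-null females, which lack the oocyte RNA-binding proteins ZAR1 and ZAR2, to ask what these do for maternal mRNA. Both genes were disrupted with CRISPR/Cas9 in the whole animal, Zar1l (Zar2) by a deletion in exon 1 that shifts the reading frame and Zar1 by a small deletion with an early stop codon behind it. All animals were of the C57BL6/ICR hybrid strain. Each genotype was sampled at 3 stages, with 2 libraries of 10 oocytes per group. Growing oocytes came from females labelled as 13.5 days old, although the study's methods give a slightly younger age. Fully grown oocytes, which still have their germinal vesicle (GV), came from 21-day-old females 44 h after PMSG, and ovulated oocytes, labelled as metaphase II (MII), were collected 16 h after hCG. By the study's microscopy, ovulated Zar1/2-null oocytes had not completed the first meiotic division and lacked an MII spindle. MII is therefore used for the time of collection, and the genotype and the meiotic stage reached cannot be told apart in that comparison. By RT-qPCR, the study found the decay of selected mRNAs unaffected in WT oocytes held in meiosis I with nocodazole. No such oocytes are among these libraries. The libraries were primed with oligo(dT) by Smart-seq2, so the values are those of polyadenylated RNA. The labels do not say that the 2 libraries of a group came from separate animals, and the p-values measure the spread between libraries, which may be technical.

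The authors had multiplied the FPKM values of each library by a factor from an RNA spike-in. The values are thus meant to follow the amount of RNA in 10 oocytes. The recovered factors were 1 and 1 in WT growing, 0.836 and 0.697 in WT GV, and 0.225 and 0.228 in WT MII oocytes. They were 0.862 and 0.779, 0.533 and 0.583, and 0.283 and 0.252 in the Zar1/2-null groups. Both WT growing libraries have a factor of 1, although the study's supplement gives them different spike-in shares. The libraries of the 2 replicate numbers are therefore not on exactly the same scale, and the offset enters the spread within groups. Each library held 10 oocytes, so the number of oocytes per library did not differ between groups. The table holds no read counts, so the number of reads behind a single value is unknown. The study does give the total reads of each library. Zar1l, a targeted gene, averaged 642, 519 and 3.92 FPKM in WT growing, GV and MII oocytes and 15.3, 20.3 and 1.19 FPKM in Zar1/2-null oocytes, lower at each stage as the labels say. Zar1 RNA stayed at 433, 169 and 192 FPKM in Zar1/2-null oocytes, but its small deletion leaves the rest of the transcript to be counted, so Zar1 does not check the labels. All 12 oocyte markers examined reached 1 FPKM, while 3 of 14 granulosa and cumulus markers (Cyp19a1, Fshr and Inha), 1 of 6 immune markers (Cd68) and 0 of 4 oviduct markers did so in any library.

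Pabpc1 lies at chr15:36525416-36538728 on the minus strand of mm9, Pabpc1l at chr2:163851186-163876274 on the plus strand and Pabpc4 at chr4:122939594-122976168 on the plus strand. Pabpn1 lies at chr14:55511337-55517006 on the plus strand, Pabpn1l at chr8:125143371-125146639 on the minus strand and Paip1 at chr13:120217408-120247025 on the plus strand. Other annotated genes overlap Pabpc4 (Gm12900 and SNORA55), Pabpn1 (Gm20521), Pabpn1l (Gm20388) and Paip2 (Slc23a1). The library kit does not mark strand, so reads from such a neighbour and from the member cannot be told apart where they overlap.

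The 3 cytoplasmic forms differ in their 5′ leaders. PABPC1 is known to bind an adenosine-rich stretch in the leader of its own mRNA and to hold back its translation. The stretch of 30 bases richest in A was therefore looked for in the annotated leader of each member, on the transcript strand, and is shown for the 3 cytoplasmic forms with runs of 3 or more A in capitals.
Pabpc1: gAAAAAAcccAAAAAAAAtttacAAAAAAA
Pabpc4: gAAAAAAAAAAgcAAAAgggAAAAAAAgaa
Pabpc1l: tgctggcccgcttctgggtgccctgcgcat
The Pabpc1 stretch, at transcript bases 105 to 134, held 22 A, and 0.763% of 18090 mouse leaders held as many in any 30 bases. The Pabpc4 stretch, at bases 12 to 41, held 23 A, as many as in 0.542% of leaders. The Pabpc1 and Pabpc4 leaders are 467 and 704 bases long, and longer leaders hold more stretches of 30 bases. The shares were not matched for length. The Pabpc1l leader is 31 bases long, and its richest stretch held 1 A. Pabpc1l thus lacks, in this annotation, the A-rich leader that the other cytoplasmic forms carry. The richest stretches of Pabpn1l and Paip1 held 10 and 6 A.

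Stored mRNAs of oocytes are known to gain or lose their tails through elements in the 3′ untranslated region, so the ends of the members were searched for the cytoplasmic polyadenylation elements TTTTAT and TTTTAAT and the polyadenylation signals AATAAA and ATTAAA, on the transcript strand. The sites closest to the end are shown for the members that passed a test between genotypes at any stage, except Paip2, with the motif in capitals. The same letters may overlap other motifs, and a match is no proof of a working site.
Pabpc1 element: aacaaattaatgTTTTATagaccctgggaa
Paip1 element: tttaagtaatgtTTTTATctaatgtcaaat
Pabpc1 signal: aattcttgctttAATAAAaattccttaaac
Pabpc4 signal: tcaaataaaggaAATAAAatctccataaat
Paip1 signal: ttagaatttgaaAATAAAacttagtttgtt
Pabpc1l signal: tttgctttatatATTAAAaaatgctgcaaa
Pabpn1l signal: agaatgtaaattATTAAActtgaatatatt
TTTTAT was found once in the 439-base Pabpc1 region, 194 bases before the end, and 4 times in that of Paip1. It occurred in 48.5% of 19143 mouse 3′ regions, and in 30.8% and 54.8% of those of like length to Pabpc1 and Paip1 (within 20%). Neither element was found in Pabpc1l, Pabpc4, Pabpn1 or Pabpn1l, and Paip2 held TTTTAAT once. Pabpc1, Pabpc4, Paip1 and Paip2 carried AATAAA, which 77.7% of all 3′ regions hold, near the end. Both oocyte forms, Pabpc1l and Pabpn1l, carried ATTAAA 22 and 20 bases from the end instead, with no AATAAA anywhere in the region, and so did Pabpn1, 53 bases from the end.

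The authors trimmed reads to 50 bases and kept those that mapped to 1 place, and the cytoplasmic forms differ in how much of their transcript such reads can reach. Of the 50-base windows of the Pabpc1 transcript, 32.04% occurred unchanged at another mm9 locus and 63.6% did so with up to 2 mismatches, over 14 loci, the fullest of them on chromosome 17. For Pabpc4 the shares were 75.8% and 98.5%, over 20 loci, with 93.1% of windows found at Gm10110 on chromosome 14. For Pabpc1l they were 0% and 0.607%, and for Pabpn1 3.06% and 14.5%. Pabpn1l and Paip1 had no such window, and Paip2 had 0.0701% with mismatches. The levels of Pabpc1 and Pabpc4 may therefore be understated, and reads of their copies may be counted with them, whereas that of Pabpc1l is almost free of this. The effect of multiply mapped reads on the values was not tested.

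**Figure D1:**
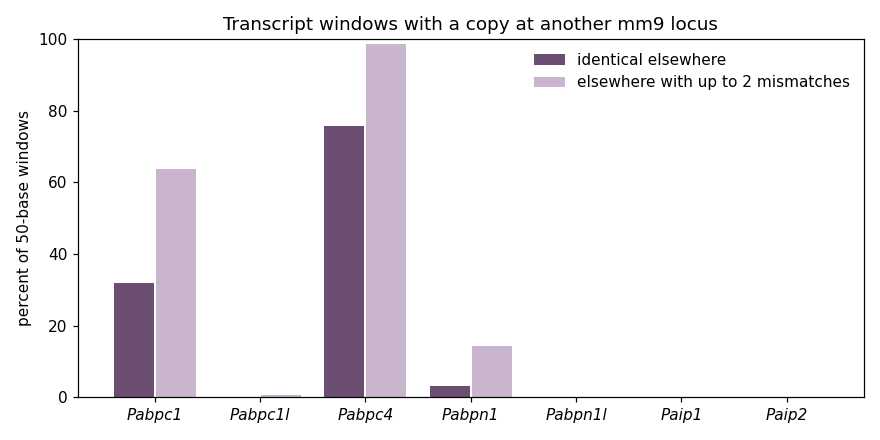
Percent of 50-base windows of each member's transcript that occur at another locus of mm9, unchanged (dark bars) or with up to 2 mismatches (light bars). Pabpc1 reaches 63.6% and Pabpc4 98.5%, while Pabpc1l stays at 0.607%.

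Pabpc1, the general cytoplasmic form, was higher in Zar1/2-null oocytes at every stage, 3.81-fold in growing, 3.01-fold in GV and 8.32-fold in MII oocytes. It stood at 7.52 and 7.04 FPKM in the WT growing libraries against 24.2 and 31.3 FPKM in the Zar1/2-null ones. At the GV stage it was 6.40 and 6.29 FPKM in WT against 22.5 and 15.6 FPKM, and at MII 1.04 and 1.30 FPKM against 9.48 and 9.94 FPKM. The groups did not overlap at any stage, and the lowest Zar1/2-null library of all stages (9.48 FPKM, MII) lay above the highest WT library (7.52 FPKM, growing). The difference in log2(FPKM + 1), the scale of all tests below, was 1.78 ± 0.18 (SE), 1.43 ± 0.18 and 2.31 ± 0.18 (limma with Benjamini-Hochberg adjustment over all 11502 genes, adjusted p = 4.89e-05, 0.000182 and 1.85e-06). Genes higher at all 3 stages by this test made up 0.974% of those tested. The summed granulosa and cumulus markers were 21.5 to 25.2 FPKM in WT growing and 5.95 to 11.03 FPKM in Zar1/2-null growing oocytes. They were 12.7 to 14.9 FPKM against 10.1 to 11.8 FPKM at the GV stage and 3.96 to 4.06 FPKM against 6.14 to 7.29 FPKM at MII, most of it Cyp19a1. The summed immune markers were 0.458 to 1.40 FPKM in WT growing and 3.08 to 3.12 FPKM in Zar1/2-null growing oocytes. At the GV stage these were 0.693 to 1.85 FPKM against 0.910 to 2.64 FPKM, and at MII 0.783 to 0.839 FPKM against 0.886 to 0.939 FPKM. The part of either marker set in the result was not tested.

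Pabpc1l, the oocyte form, did not pass the test before ovulation but was 10.1-fold higher in Zar1/2-null oocytes at MII. The growing libraries held 82.05 and 119 FPKM in WT and 93.1 and 107 FPKM in Zar1/2-null oocytes, which overlapped. At the GV stage it was 52.3 and 51.9 FPKM in WT and 31.8 and 44.3 FPKM in Zar1/2-null oocytes, a log2 difference of -0.46 (95% interval -0.94 to 0.02, limma adjusted p = 0.105). That difference passed with a replicate block (limma adjusted p = 0.0413) and turned to 0.068 under median scaling. At MII Pabpc1l was 1.31 and 2.095 FPKM in WT and 16.8 and 17.7 FPKM in Zar1/2-null oocytes, a log2 difference of 2.77 ± 0.22 (SE, limma adjusted p = 1.80e-06). The MII groups were far apart, and no library lay between them.

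Pabpc4, another general cytoplasmic form, passed the test between genotypes at the GV stage only. It measured 45.4 and 52.8 FPKM in WT growing and 45.9 and 44.5 FPKM in Zar1/2-null growing oocytes. At MII the values were 4.67 and 4.58 FPKM against 4.85 and 4.23 FPKM, with the 95% interval of the log2 difference from -0.45 to 0.40 (limma adjusted p = 0.965). At the GV stage it was lower in Zar1/2-null oocytes, at 13.9 and 21.6 FPKM against 28.5 and 24.1 FPKM in WT, by 0.57 ± 0.19 on the log2 scale (limma adjusted p = 0.0335). That call was lost without WT GV replicate 1 or Zar1/2-null GV replicate 1 (limma adjusted p = 0.193 and 0.245), and without the spike-in scaling (limma adjusted p = 0.610).

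Pabpn1, the general nuclear form, had the narrowest range of the 7 members on the spike-in scaled values. Its 12 libraries lay between 10.4 and 19.2 FPKM, and no genotype difference passed the test. Without the scaling they ran from 11.8 to 55.3 FPKM, and the WT MII mean was 205% of that at the GV stage. Its log2 differences were 0.13 in growing, -0.35 in GV and 0.17 in MII oocytes (limma adjusted p = 0.511, 0.0783 and 0.441).

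Pabpn1l, the oocyte relative of Pabpn1, differed between genotypes in opposite directions at different stages. In growing oocytes it was lower in the Zar1/2-null libraries, at 201 and 207 FPKM against 489 and 469 FPKM in WT, a log2 difference of -1.23 ± 0.23 (limma adjusted p = 0.00223). At the GV stage it was higher, at 492 and 619 FPKM against 290 and 308 FPKM, by 0.88 ± 0.23 on the log2 scale (limma adjusted p = 0.0111). This call was lost without WT GV replicate 1 or Zar1/2-null GV replicate 2 (limma adjusted p = 0.0738 and 0.0726). At MII it was 226 and 128 FPKM against 55.9 and 65.2 FPKM, higher by 1.48 ± 0.23 (limma adjusted p = 0.000499). The groups did not overlap at any stage, and the change of the genotype difference from growing to GV, 2.11 ± 0.33 on the log2 scale, was itself past the threshold (limma adjusted p = 0.00353), as it was for 2.58% of genes in this direction and 11.3% in the other.

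Paip1, which binds cytoplasmic poly(A)-binding protein and stimulates translation, was lower in Zar1/2-null oocytes at every stage. It was 223 and 175 FPKM in WT growing oocytes against 132 and 91.2 FPKM, 284 and 181 FPKM in WT GV oocytes against 117 and 112 FPKM, and 207 and 144 FPKM in WT MII oocytes against 62.9 and 50.9 FPKM. The groups did not overlap at any stage. The log2 differences were -0.84 ± 0.26, -0.98 ± 0.26 and -1.59 ± 0.26 (SE, limma adjusted p = 0.0289, 0.0121 and 0.000724), and 5.96% of genes were lower at all 3 stages by this test. Without the spike-in scaling the growing and GV differences were -0.56 and -0.53 and did not pass (limma adjusted p = 0.0732 and 0.103). The growing call was also lost without WT growing replicate 1, WT growing replicate 2 or Zar1/2-null growing replicate 2 (limma adjusted p = 0.185, 0.0529 and 0.229), and the GV call without WT GV replicate 1 or Zar1/2-null GV replicate 2 (limma adjusted p = 0.132 and 0.0531).

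Paip2, on chromosome 18 and shown without sequence, encodes a small protein that takes poly(A)-binding protein off the tail and holds back translation. It had the largest difference of the 7 members, at MII. It measured 533 and 523 FPKM in WT growing and 571 and 456 FPKM in Zar1/2-null growing oocytes, which overlapped. At the GV stage it was 617 and 472 FPKM in WT and 383 and 408 FPKM in Zar1/2-null oocytes, a log2 difference of -0.45 (95% interval -0.83 to -0.06, limma adjusted p = 0.0578). That difference passed with a replicate block (limma adjusted p = 0.0264). It turned to 0.0045 without the spike-in scaling and to 0.093 under median scaling. At MII Paip2 was 4.74 and 4.37 FPKM in WT and 264 and 232 FPKM in Zar1/2-null oocytes, 54.4-fold higher and 5.48 ± 0.17 on the log2 scale (SE, limma adjusted p = 1.62e-09). The lower Zar1/2-null library stood far above both WT libraries.

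**Figure D2:**
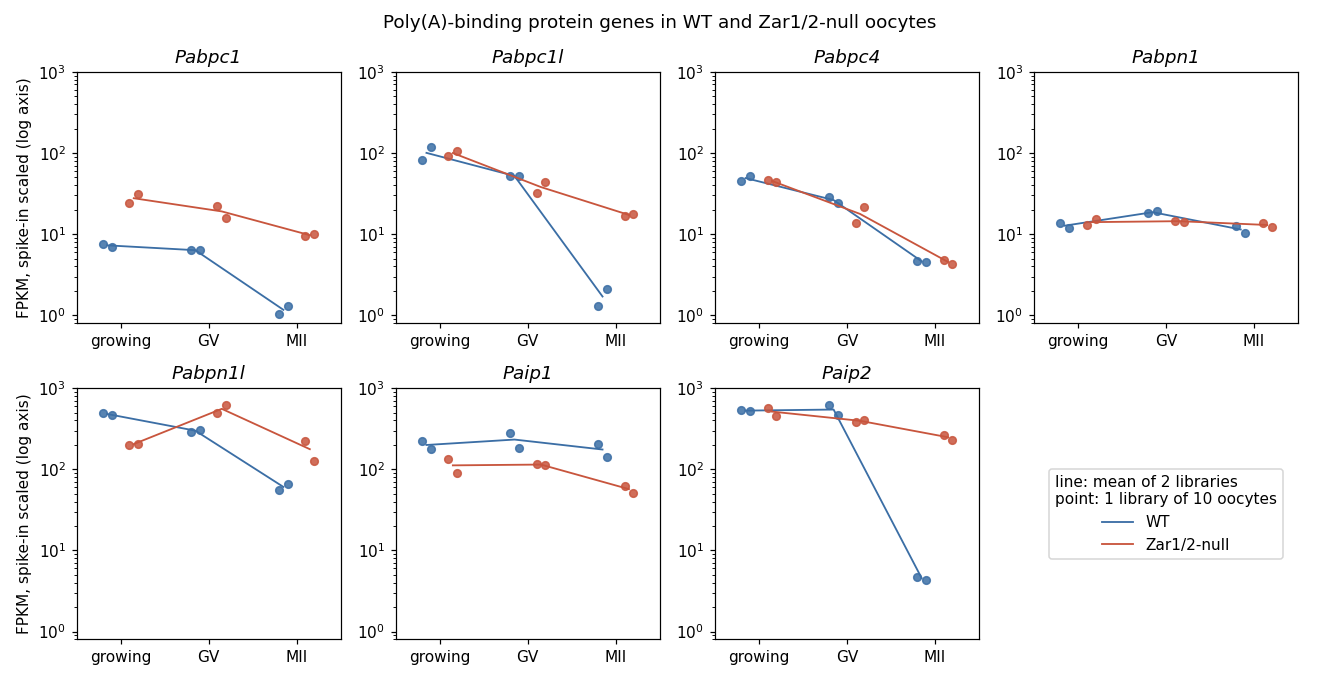
FPKM of each member (log axis) in growing, GV and MII oocytes, with 1 point per library and lines through the means of the 2 libraries of WT (blue) and Zar1/2-null (red) oocytes. Paip2 drops from 544 to 4.56 FPKM on average between WT GV and MII oocytes and from 395 to 248 FPKM in Zar1/2-null oocytes, while Pabpc1 lies higher in Zar1/2-null oocytes at all 3 stages.

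Over the 7 members, 1 was higher and 2 were lower in Zar1/2-null growing oocytes by limma, where 10.6% and 24.4% of all genes were. At the GV stage 2 were higher and 2 lower, beside 2.83% and 40.6% of all genes. At MII 4 were higher (Pabpc1, Pabpc1l, Pabpn1l and Paip2) and 1 was lower (Paip1), beside 21.5% and 10.3%. Libraries that do not overlap were common among all genes at these group sizes. In growing oocytes 1 member was above WT and 2 were below in this way, beside 22.4% and 47.4% of genes, in GV oocytes 2 and 5, beside 6.79% and 63.6%, and in MII oocytes 4 and 1, beside 43.5% and 27.8%. By a 3-fold difference of the means, with means set to at least 1 FPKM, Pabpc1 alone passed in growing and in GV oocytes, on the higher side, where 0.982% and 0.461% of genes were, while 3.54% and 4.20% were on the lower side. At MII Pabpc1, Pabpc1l and Paip2 passed on the higher side and Paip1 on the lower, beside 7.49% and 1.32%. The median log2 difference of the members was -0.05, -0.45 and 1.48 at the 3 stages, and that of all genes -0.16, -0.38 and 0.06. Relative to these medians of all genes, Pabpc1 stood at 1.94, 1.80 and 2.25, and Paip1 at -0.68, -0.61 and -1.65. The members therefore did not move as a block, and the stimulator Paip1 and the inhibitor Paip2 differed in opposite directions at MII.

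**Figure D3:**
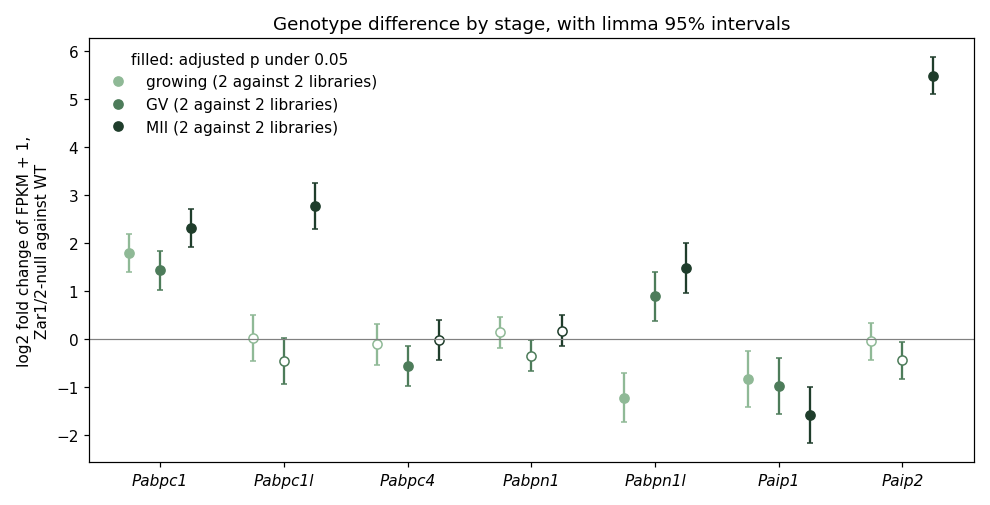
Difference in log2(FPKM + 1) between Zar1/2-null and WT oocytes at each stage, with limma 95% intervals, from 2 against 2 libraries; filled points passed an adjusted p of 0.05. Pabpc1 lies above 0 and Paip1 below 0 at all 3 stages, and Paip2 reaches 5.48 at MII.

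Pabpc1l was more abundant than Pabpc1 in all 12 libraries, but by very different amounts. The ratio of Pabpc1l to Pabpc1 FPKM was 10.9 and 16.9 in WT growing, 8.18 and 8.26 in WT GV and 1.27 and 1.61 in WT MII oocytes. The Zar1/2-null libraries gave 3.86 and 3.41, 1.41 and 2.84, and 1.77 and 1.78. WT libraries lay above Zar1/2-null libraries in growing and GV oocytes and below them at MII. The log2 ratio differed by -1.90, -2.04 and 0.31 between Zar1/2-null and WT oocytes at the 3 stages, and by -1.21 on average, which did not pass a two-sided exact permutation test of the genotype labels within stages (exact p = 0.0556, 216 arrangements, smallest possible p 0.00926). Without Zar1/2-null MII replicate 1 or 2 it was -1.21 in either case (exact permutation p = 0.0463). Within a single stage 2 against 2 libraries cannot give an exact permutation p below 0.333. Averaged over both genotypes, the log2 ratio went from 2.81 in growing to 2.02 in GV and 0.67 in MII oocytes. This spread passed the exact permutation test of the stage labels within genotypes (exact p = 0.0185, 8100 arrangements). The genotypes differed in course, with means of 3.76, 3.04 and 0.52 in WT and 1.86, 1.00 and 0.83 in Zar1/2-null oocytes. In the latter the GV libraries stood at 0.50 and 1.51, so the MII mean lay between them. The ratio needs no spike-in factor, since both genes are from the same library.

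The size of the ratio depends on how much of Pabpc1 could be read. If every window of Pabpc1 with an unchanged copy elsewhere had been lost, its level would be 1.47 times the printed one, and 2.75 times if those with up to 2 mismatches had been lost as well. The ratio would then be 5.56 and 5.61, or 2.98 and 3.01, in WT GV oocytes, and 0.461 and 0.588 in WT MII oocytes under the second assumption, which puts Pabpc1 above Pabpc1l there. Such a constant leaves the differences between groups as they are. The longest run of bases that the Pabpc1 and Pabpc1l transcripts share is 23, shorter than a read, and their coding sequences are 68.9% identical.

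Of the summed FPKM of Pabpc1, Pabpc1l and Pabpc4, Pabpc1 made up 5.57% and 3.94% in WT growing, 7.33% and 7.64% in WT GV and 14.8% and 16.3% in WT MII oocytes. In Zar1/2-null oocytes its share was 14.8% and 17.1%, 33.0% and 19.1%, and 30.5% and 31.2%. At MII, Pabpc1l made up 18.7% and 26.3% of the sum in the WT libraries and 53.9% and 55.6% in the Zar1/2-null ones, and Pabpc4 66.5% and 57.4% against 15.6% and 13.3%. These shares use the printed FPKM, with no correction for copies elsewhere. As 75.8% of Pabpc4 windows had an unchanged copy, its part may be understated. Whether Pabpc1l or Pabpc4 was the larger part is therefore uncertain. The sum itself was 157 ± 30.8 and 173 ± 13.6 FPKM (SD, n = 2) in WT and Zar1/2-null growing oocytes, 84.8 ± 3.49 and 74.9 ± 9.36 FPKM at the GV stage, and 7.50 ± 0.669 and 31.5 ± 0.542 FPKM at MII. The sums overlapped between genotypes in growing oocytes. They did not overlap at the GV stage, where the lowest WT library had 82.3 FPKM and the highest Zar1/2-null one 81.5 FPKM, nor at MII, where Zar1/2-null oocytes had the higher sum.

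**Figure D4:**
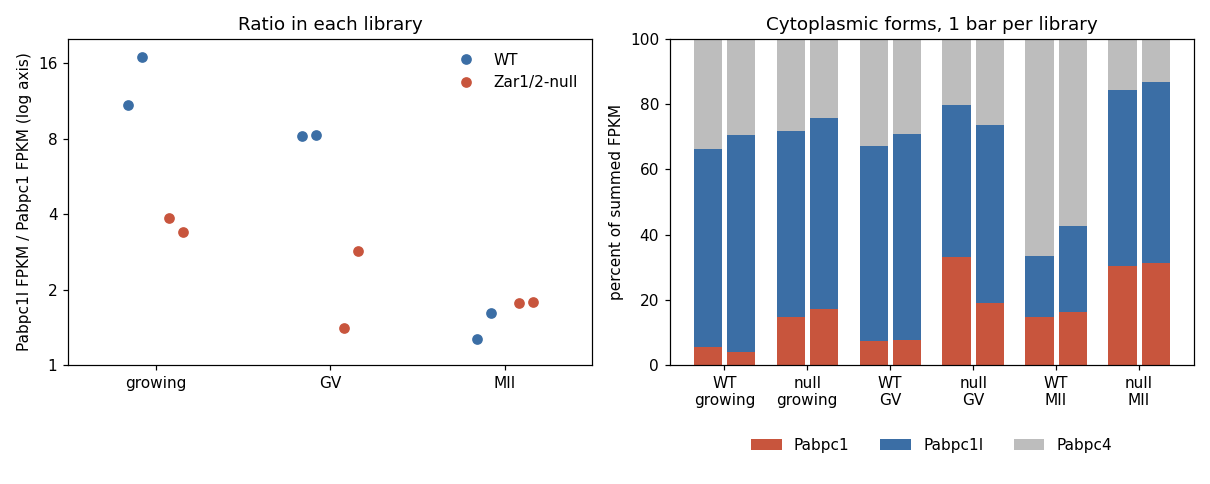
Left, ratio of Pabpc1l to Pabpc1 FPKM in each library (log axis) by stage, WT in blue and Zar1/2-null in red; right, percent of the summed FPKM of the 3 cytoplasmic forms taken by each, with 1 bar per library. WT ratios fall from 10.9 and 16.9 in growing to 1.27 and 1.61 in MII oocytes, and Pabpc1l takes at least 53.9% of the sum in Zar1/2-null MII oocytes against at most 26.3% in WT. The printed FPKM are used, and the parts of Pabpc1 and Pabpc4 may be understated because of copies elsewhere.

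The other pairs are given as a description. The ratio of Pabpc1l to Pabpc4, the other general form, was 1.81 and 2.25 in WT growing and 1.83 and 2.16 in WT GV oocytes, against 2.03 and 2.40, and 2.29 and 2.05, in Zar1/2-null oocytes. These overlapped between genotypes at both stages, whereas at MII the ratio was 0.281 and 0.458 in WT and 3.46 and 4.19 in Zar1/2-null oocytes. The size of these ratios is uncertain, since 75.8% of Pabpc4 windows had an unchanged copy elsewhere and no correction was made. The ratio of Pabpn1l to Pabpn1 was 36.0 and 39.7 in WT growing oocytes, 16.0 and 16.1 in WT GV and 4.50 and 6.28 in WT MII oocytes. The Zar1/2-null values were 15.6 and 13.6, 33.4 and 43.6, and 16.5 and 10.4, highest at the GV stage. The ratio of Paip2 to Paip1 was 2.39 and 2.99 in WT growing and 2.18 and 2.61 in WT GV oocytes, and 0.0229 and 0.0305 in WT MII oocytes. In Zar1/2-null oocytes it was 4.32 and 4.9999, 3.27 and 3.66, and 4.195 and 4.56, so that Paip2 was the more abundant of the 2 regulators after ovulation as well.

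From growing to GV oocytes in WT, Pabpc1l, Pabpc4 and Pabpn1l fell and Pabpn1 rose, beside 28.7% of all genes lower and 2.77% higher. The log2 changes were -0.91 ± 0.22, -0.88 ± 0.19, -0.68 ± 0.23 and 0.52 ± 0.15 (limma adjusted p = 0.0119, 0.00824, 0.0463 and 0.0231). None of the 4 calls held without WT growing replicate 2 or without WT GV replicate 2, and only that of Pabpn1 held without the spike-in scaling. In Zar1/2-null oocytes Pabpc1, Pabpc1l and Pabpc4 fell by 0.53, 1.38 and 1.33 on the log2 scale and Pabpn1l rose by 1.43 (limma adjusted p = 0.0263, 0.000324, 0.000193 and 0.000422), beside 55.9% of genes lower and 4.76% higher. The fall of Pabpc1 was lost without Zar1/2-null growing replicate 2 or Zar1/2-null GV replicate 2 (limma adjusted p = 0.190 and 0.208), and turned to 0.00364 without the spike-in scaling (limma adjusted p = 0.998).

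From GV to MII in WT, 93.4% of all genes fell, and 6 of the 7 members did, while 0.104% of genes and no member rose. The MII level was 0.837% of the GV level for Paip2 and 3.27% for Pabpc1l, where the median gene with at least 1 FPKM at the GV stage kept 19.0%. Pabpc4, Pabpc1 and Pabpn1l kept 17.6%, 18.4% and 20.3%, close to that median, and Pabpn1 61.2%. Paip1 kept 75.4%, and its libraries overlapped between the stages (log2 change -0.39, limma adjusted p = 0.171). On the log2 scale Paip2 fell by 6.61 and Pabpc1l by 4.31 (limma adjusted p = 9.08e-11 and 6.45e-09), and genes whose GV mean was over 10-fold the MII mean, as theirs were, made up 15.7% of all. Without the spike-in scaling Paip2 still kept 2.85% and Pabpc1l 10.98%, but Pabpn1 and Paip1 turned to 1.01 and 1.36 higher at MII (limma adjusted p = 0.000352 and 0.000162). Under median scaling Pabpn1 and Paip1 rose as well, and of the 6 falls only those of Paip2 and Pabpc1l passed. Pabpc1, Pabpc4 and Pabpn1l then stood at -0.27, -0.37 and -0.19 on the log2 scale (limma adjusted p = 0.261, 0.0636 and 0.426).

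In Zar1/2-null oocytes the MII level was 62.7% of the GV level for Paip2, 45.3% for Pabpc1l and 50.9% for Pabpc1, and the median gene kept 36.4%. Pabpc4 kept 25.6%, Pabpn1l 31.8%, Paip1 49.8% and Pabpn1 89.7%. Again 6 members fell by limma, here all but Pabpn1, beside 68.7% of genes lower and 0.209% higher. The directions depended on the spike-in scaling. Without it Paip2 was 0.39 higher at MII than at GV and Pabpn1 0.88 higher (limma adjusted p = 0.0130 and 0.00120), and Pabpc1, Pabpc1l and Paip1 were within 0.11 of no change (limma adjusted p = 0.706, 0.846 and 0.865).

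The change from GV to MII differed between genotypes for Paip2, by 5.93 ± 0.25 on the log2 scale, for Pabpc1l, by 3.23 ± 0.31, and for Pabpc1, by 0.88 ± 0.26 (limma interaction, adjusted p = 3.67e-08, 1.43e-05 and 0.0226). In this test 33.9% of all genes were higher and 0.643% lower, with a median of 0.48 over all genes, so Pabpc1 lay 0.40 above the median gene, Pabpc1l 2.75 and Paip2 5.45. The Pabpc1 call was lost without the spike-in scaling (0.71, limma adjusted p = 0.152) and without WT GV replicate 1, Zar1/2-null GV replicate 2, WT MII replicate 1, or Zar1/2-null MII replicate 1 or 2 (limma adjusted p between 0.0556 and 0.0828). For Pabpc4, Pabpn1 and Pabpn1l the differences of 0.54, 0.52 and 0.59 did not pass (limma adjusted p = 0.137, 0.0746 and 0.179). Paip1 was the only member below 0, at -0.61 ± 0.37 (SE, limma adjusted p = 0.221). Its difference passed without the spike-in scaling (-1.31, limma adjusted p = 0.00867) and under median scaling (-1.38, limma adjusted p = 0.0119).

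**Figure D5:**
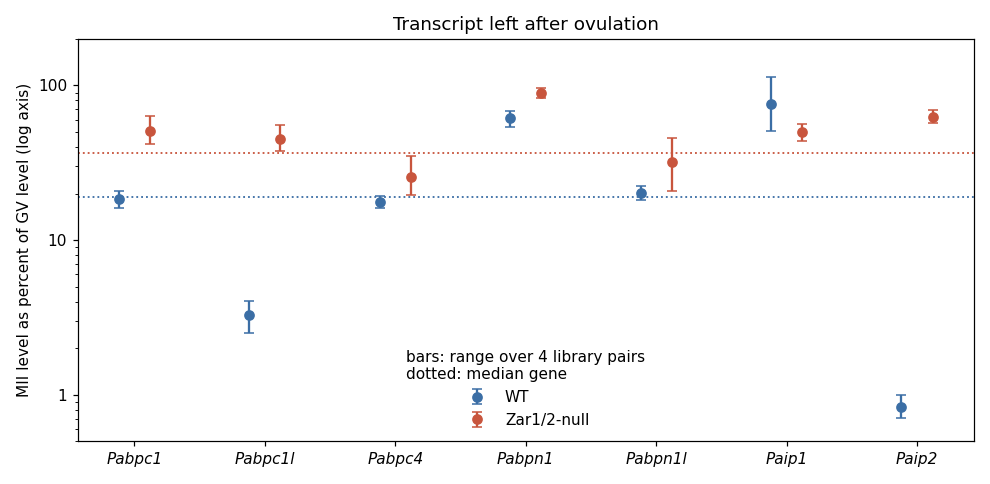
MII level as percent of the GV level (log axis) for each member in WT (blue) and Zar1/2-null (red) oocytes; bars span the 4 pairs of libraries and dotted lines mark the median gene, 19.0% and 36.4%. Paip2 and Pabpc1l kept 0.837% and 3.27% in WT and 62.7% and 45.3% in Zar1/2-null oocytes.

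The order of the members by level changed with these shifts. In WT growing and GV oocytes it was Paip2, Pabpn1l, Paip1, Pabpc1l, Pabpc4, Pabpn1 and Pabpc1, and no neighbours in that order overlapped. The places of Pabpc1 and Pabpc4 in any such order are uncertain, since 32.04% and 75.8% of their windows had an unchanged copy elsewhere. Their levels may be understated, and the order was not worked out with a correction. In WT MII oocytes Paip1 led, at 175 ± 44.6 FPKM (SD, n = 2), then Pabpn1l and Pabpn1, then Pabpc4 and Paip2, which overlapped, then Pabpc1l and Pabpc1. In Zar1/2-null growing oocytes Paip1 and Pabpc1l overlapped and Pabpn1 was last, and in Zar1/2-null GV oocytes Pabpn1l led, Pabpc1 overlapped with Pabpc4, and Pabpc4 with Pabpn1. In Zar1/2-null MII oocytes Paip2 led, at 248 ± 22.6 FPKM, and Pabpc4 was last.

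Other genes of the pathway were read from 3 lists, described by counts only. Of 6 further poly(A)-binding genes and regulators, Pabpc2, Pabpc4l, Pabpc5 and Pabpc6 were under 1 FPKM in every library. The other 2, Paip2b and Zc3h14, were both lower in Zar1/2-null GV oocytes (limma adjusted p = 0.00579 and 0.0264) and did not pass the test in growing or MII oocytes. Paip2b, a second gene of the Paip2 kind, averaged 92.2 FPKM in WT GV oocytes and 8.16 FPKM at MII, a log2 fall of 3.35 ± 0.16 (limma adjusted p = 4.84e-09). In Zar1/2-null oocytes Paip2b went from 56.9 FPKM to 5.12 and 6.38 FPKM in the MII libraries, and its genotype difference at MII was -0.45 on the log2 scale (limma adjusted p = 0.0572).

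Of 21 partners that bind poly(A)-binding proteins or carry the same kind of binding motif, 3 were higher and 5 lower in Zar1/2-null growing oocytes, 0 and 15 in GV, and 2 and 4 in MII oocytes. Of all genes 10.6% were higher and 24.4% lower in growing, 2.83% and 40.6% in GV, and 21.5% and 10.3% in MII oocytes. Their median log2 differences were -0.06, -0.54 and -0.20, beside the -0.16, -0.38 and 0.06 of all genes. Pan3, a subunit of the deadenylase that poly(A)-binding protein recruits, averaged 56.5, 54.9 and 34.2 FPKM in WT growing, GV and MII oocytes and 28.1, 20.3 and 14.6 FPKM in Zar1/2-null oocytes, a log2 difference of -0.98, -1.41 and -1.18 (limma adjusted p = 0.00142, 0.000149 and 0.000304). Larp4, a poly(A)-binding La-related protein, was lower by 0.72 in growing, by 1.09 in GV and by 1.23 in MII oocytes (limma adjusted p = 0.0110, 0.000894 and 0.000314). Dazl, a germ-cell RNA-binding protein that recruits poly(A)-binding protein, was lower by 1.52 at MII, at 33.0 and 47.1 FPKM against 123 and 107 FPKM (limma adjusted p = 0.000109), and by 1.07 at the GV stage (limma adjusted p = 0.00148). Tob1, an antiproliferative protein that links poly(A)-binding protein to deadenylation, was higher by 1.01 in growing oocytes and lower by 0.43 in GV oocytes (limma adjusted p = 0.000265 and 0.0242). Its genotype difference changed by -1.45 on the log2 scale between these stages (limma interaction, adjusted p = 0.00161). All 21 fell from GV to MII in WT oocytes, as 93.4% of all genes did.

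Of 19 genes of the nuclear cleavage and polyadenylation machinery that were tested, out of 20 listed, 5 were higher and 3 lower in Zar1/2-null growing oocytes, 0 and 8 in GV, and 1 and 3 in MII oocytes. The shares of all genes are those given for the partners, so the 8 of 19 that were lower at the GV stage stand beside 40.6%. Their median log2 differences were -0.15, -0.44 and -0.07. Cstf2, a subunit that binds downstream of the cleavage site, was higher in Zar1/2-null growing oocytes, at 13.0 and 15.6 FPKM against 6.59 and 5.33 FPKM (log2 difference 1.14 ± 0.16, limma adjusted p = 0.000387), and did not pass in GV or MII oocytes. Cpsf2, a subunit of the complex that recognises the polyadenylation signal, was lower there, at 11.5 and 10.1 FPKM against 22.5 and 23.5 FPKM (-1.03 ± 0.14, limma adjusted p = 0.000345), and also in GV and MII oocytes (-0.91 and -0.57, limma adjusted p = 0.000648 and 0.00975). All 19 fell from GV to MII in WT oocytes, beside the same 93.4% of all genes. Among those with at least 10 FPKM at the GV stage, Cpsf3, the cleaving enzyme, fell most on the log2(FPKM + 1) scale, by 3.47, from 24.96 to 1.33 FPKM (limma adjusted p = 6.97e-09).

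The genes whose log2(FPKM + 1) followed Pabpc1l most closely over the 12 libraries, among 4265 genes averaging at least 10 FPKM, were Calr, Kif17 and Smpd1 (Pearson r = 0.997, 0.997 and 0.996). Calr averaged 129 FPKM in WT GV, 10.2 FPKM in WT MII and 45.1 FPKM in ovulated Zar1/2-null oocytes. Those that followed Pabpc1 most closely were Slco3a1, Tmem107 and Gpx6 (r = 0.993, 0.959 and 0.958). Gpx6 averaged 34.2, 24.0 and 8.13 FPKM in WT and 110.03, 60.04 and 43.0 FPKM in Zar1/2-null growing, GV and MII oocytes. All of these share the 12 libraries, their spike-in factors and the fall at MII, and the values are a description of likeness only.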

How the data were processed

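Per the labels and the study's methods, 12 Smart-seq2 libraries of 10 oocytes were trimmed to 50 bases and mapped to mm9 with TopHat2 2.1.1. Only reads with a unique place were passed to Cufflinks 2.2.1, guided by UCSC annotation. The authors' deposited table gives spike-in scaled FPKM and no counts, for 23230 genes in 12 columns. Genotype, stage and replicate came from the sample titles.

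A gene entered the tests where any library reached 1 FPKM (11502 genes). Values were tested as log2(FPKM + 1) with limma 3.58.1 (R 4.3.3), using 1 coefficient for each of the 6 groups, eBayes with a mean trend, and Benjamini-Hochberg adjustment at a threshold of 0.05. The added 1 FPKM understates the change of low genes. The log2 ratio of Pabpc1l to Pabpc1 was tested by exact permutation. Sequences came from an annotation of mm9, searched with Python 3.11.15, numpy 2.4.6 and Biopython 1.88.

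Named genes are the 7 members, Zar1 and Zar1l. From 3 pathway lists, pooled into 1, the 2 genes with the largest called change in each direction and 10 FPKM or more on average in the higher group were named, for each genotype contrast and for WT MII against GV, and Paip2b and Zc3h14 as all kept genes of their list. For Pabpc1l and Pabpc1 the 3 genes with the closest pattern were named. The members and lists were chosen with earlier results of these data known. Alternatives were no spike-in scaling, median scaling, a pseudocount of 0.1 FPKM, no filter, a replicate block, only the libraries compared, a 3-fold rule and leaving out each library. Dividing Pabpc1 by its share of windows with no copy was chosen after seeing the data.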

Additional observations from a re-analysis of the deposited data

Results flagged for a closer look

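Of 14 genotype-by-stage interactions computed for the 7 members, 4 passed the limma test (Benjamini-Hochberg over 11502 genes), each from 2 libraries per group. Of all genes 2.58% were higher and 11.3% lower from growing to GV, and 33.9% and 0.643% from GV to MII. For Pabpn1l the genotype difference changed by 2.11 on the log2 scale from growing to GV oocytes, from lower to higher in Zar1/2-null oocytes (limma adjusted p = 0.00353). It kept this call under every alternative fit. From GV to MII the genotype difference changed by 5.93 for Paip2, by 3.23 for Pabpc1l and by 0.88 for Pabpc1 (limma adjusted p = 3.67e-08, 1.43e-05 and 0.0226). The first 2 kept their calls under every alternative fit, and that of Pabpc1 was lost without the spike-in scaling, under median scaling and without the filter (limma adjusted p = 0.152, 0.140 and 0.0703). Groups of 2 libraries are too small for a test of single outlying libraries.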

How the results depend on the processing

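The precision is limited by 2 libraries per group and by the lack of read counts per gene. Of 63 member differences, 34 kept their direction and call without the spike-in scaling and 29 under median scaling, against 55 without the filter, 60 with only the libraries compared and 62 with a pseudocount of 0.1 FPKM. The genotype differences of Pabpc1 at all 3 stages, of Pabpc1l, Pabpn1l, Paip1 and Paip2 at MII and of Pabpn1l in growing oocytes kept their calls under every alternative fit. The medians of all genes moved with the scaling from -1.28 to -0.43 for WT MII against GV, and the cause of the lost or turned calls was not tested.

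Counts of members that passed moved as follows. In growing oocytes 3 members passed and 1 by the 3-fold rule. In GV oocytes 4 passed, against 2 without spike-in scaling, 2 under median scaling, 1 without the filter, 1 by the 3-fold rule, and 1 without WT GV replicate 1, the lowest of the leave-one-out counts. For WT GV against growing 4 passed, against 1 without spike-in scaling, 1 under median scaling, 2 without the filter and 0 to 4 when a library was left out. For Zar1/2-null MII against GV 6 passed and 3 under median scaling. The log2 ratio of Pabpc1l to Pabpc1 between genotypes ranged from -1.38 to -1.04 with a library left out, and across stages from 1.98 to 2.30.

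Directions turned, without spike-in scaling and under median scaling respectively, as follows. Zar1/2-null against WT in growing oocytes became 0.17 and 0.17 for Pabpc4 and 0.24 and 0.24 for Paip2. In GV oocytes it became 0.0825 and 0.16 for Pabpn1, 0.0045 and 0.093 for Paip2, and 0.068 for Pabpc1l under median scaling. In MII oocytes it became -0.051 and -0.037 for Pabpn1. WT GV against growing became 0.17 and 0.14 for Pabpc1, and WT MII against GV became 1.01 and 1.34 for Pabpn1 and 1.36 and 1.71 for Paip1. Zar1/2-null GV against growing became 0.00364 and 0.069 for Pabpc1 and 0.19 and 0.25 for Paip2. Zar1/2-null MII against GV became 0.11 and 0.38 for Pabpc1, 0.88 and 1.14 for Pabpn1, 0.048 and 0.33 for Paip1, 0.39 and 0.67 for Paip2, and 0.22 for Pabpc1l under median scaling. The growing to GV interaction became 0.025 and 0.11 for Paip1, and the GV to MII interaction -0.12 and -0.19 for Pabpc4, -0.13 and -0.20 for Pabpn1 and -0.088 and -0.16 for Pabpn1l.

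With a library left out, directions turned for differences that did not pass the test. Pabpc1l ranged from -0.25 to 0.28 and Paip2 from -0.21 to 0.11 between genotypes in growing oocytes, and Pabpc4 from -0.10 to 0.057 in MII oocytes. From growing to GV, Paip1 ranged from -0.13 to 0.52 and Paip2 from -0.16 to 0.22 in WT, and Pabpn1 from -0.068 to 0.15 and Paip1 from -0.21 to 0.32 in Zar1/2-null oocytes. The growing to GV interaction of Paip1 ranged from -0.46 to 0.18.

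The correlation of deviations between same-numbered libraries ran from -0.12 to 0.16 over 15 pairs and passed 0.1 in 4. It does not show a shift shared by all genes, so whether the replicate numbers mark paired samples was not settled. A replicate block left 3 members called in growing, 6 in GV and 5 in MII oocytes, against 3, 4 and 5, adding Pabpc1l and Paip2 at the GV stage, and added Paip1 for WT MII against GV and Paip2 for Zar1/2-null GV against growing. It left the log2 ratio of Pabpc1l to Pabpc1 at -1.21 between genotypes (exact permutation p = 0.125) and at 2.14 across stages (exact permutation p = 0.0278).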
